A study of Arabidopsis thaliana with 10 samples.

Results

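The MIR156 family of Arabidopsis thaliana was examined in pollen small RNA libraries. Its 8 members, MIR156a to MIR156h, were taken by their gene identifiers and not by any measured value, and they are 8 of 177 microRNA genes and of 33271 loci that the 10 libraries list between 18 and 30 nt. The libraries fall into 5 groups of 2, and plants in all of them were of the Col-0 background and grown in a greenhouse in long days. SC-RTL1 pollen carries pMGH3::RTL1-Myc, driven by a promoter that is active in the male germline. VC-RTL1 pollen carries pLAT52::RTL1-Myc, driven by a promoter that is active in late microspores and afterwards mainly in the vegetative cell, and Col-0 pollen is its untransformed wild type. The RTL1 replicates were independent homozygous transgenic lines, so a construct is represented by 2 lines. The nrpd1a-3 FTL and WT FTL pollen came from plants heterozygous for the nrpd1a-3 allele and for FTL1230, a pLAT52::DsRed reporter linked to the wild-type NRPD1a gene. DsRed-negative grains (nrpd1a-3 FTL) and DsRed-positive grains (WT FTL) were separated by fluorescence-activated sorting, so the mutant grains developed on plants with a wild-type copy of the gene and the reporter was carried by the WT FTL grains alone. The replicates are labelled as biological, and p-values measure the spread between these libraries.

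Plant microRNAs are cut by the RNase III enzyme DCL1 from the foldback of a primary transcript as a duplex of a 5p and a 3p strand. In most families, one strand is loaded into ARGONAUTE1 and its partner is degraded. miR156 is the conserved microRNA that keeps seedlings juvenile: it is abundant in young shoots, declines with age, and represses mRNAs of SQUAMOSA PROMOTER BINDING PROTEIN-LIKE (SPL) transcription factors, which in turn promote the adult phase and flowering. RTL1 is an RNase III that destroys long double-stranded RNA before it is diced, and NRPD1a is the largest subunit of RNA polymerase IV, which makes the precursors of siRNAs.

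The sequences below, read from the TAIR10.1 genome at the coordinates of the RefSeq annotation, show why most of the members cannot be measured apart. Capitals mark the seed, bases 2 to 8 from the 5′ end. MIR156a to MIR156f encode the same 20-nt 5p strand, which occurs 6 times in the genome, while MIR156g (T1C) and MIR156h (G11A and T14A, positions counted from the 5′ end and bases of miR156a-5p given before those of the other microRNA) each have a sequence of their own with 1 genomic hit.
miR156a-5p, also miR156b-5p, miR156c-5p, miR156d-5p, miR156e and miR156f-5p: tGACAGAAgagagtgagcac
miR156g: cGACAGAAgagagtgagcac
miR156h: tGACAGAAgaaagagagcac
The 3p strands differ between genes and each has 1 genomic hit. Those of MIR156a, MIR156b and MIR156c are shown because RNAs of 23 nt were listed mainly at these genes.
miR156a-3p: gCTCACTGctctttctgtcaga
miR156b-3p: tGCTCACCtctctttctgtcagt
miR156c-3p: gCTCACTGctctatctgtcaga
The annotated lengths of these strands are 22, 23 and 22 nt. MIR157a to MIR157c, of a related family, give a strand that begins 1 base earlier with a leading T in the annotation, so that its seed is shifted by 1 base, while miR157d is annotated without that T and has the seed of miR156.
miR157a-5p, also miR157b-5p and miR157c-5p: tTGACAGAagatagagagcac
miR157d: tGACAGAAgatagagagcac

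The 8 genes lie on chromosomes 2, 4 and 5. MIR156a (AT2G25095) is annotated at chr2:10676451-10676573 (minus strand), MIR156c (AT4G31877) at chr4:15415418-15415521 (minus), MIR156e (AT5G11977) at chr5:3867207-3867313 (plus) and MIR156h (AT5G55835) at chr5:22597012-22597117 (minus), and no other gene overlaps these 4. MIR156b (AT4G30972), at chr4:15074899-15075081 on the plus strand, overlaps the non-coding gene AT4G30975 on the same strand, where none of the 10 libraries lists as much 20-nt signal as at MIR156b. MIR156d (AT5G10945, chr5:3456632-3456749, minus) overlaps AT5G10946 and MIR156f (AT5G26147, chr5:9136106-9136237, plus) overlaps the long non-coding RNA AT5G26146. The overlapping gene lists at least the 20-nt signal of the member in 10 of 10 libraries in each case, so reads there were counted to both genes. MIR156g (AT2G19425, chr2:8412516-8412618, minus) lies opposite the protein-coding gene AT2G19420 on the plus strand. That gene also lists at least the 20-nt signal of MIR156g in 10 of 10 libraries, so strand was not used in the counting and RNAs of MIR156g and of its antisense partner cannot be told apart.

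Values are given as signal: the reads of a gene and length, each weighted by 1 over the positions it matches in the genome and scaled to the library by the authors (RPM). Signal counts small RNAs and not hairpin length, and the hairpins span 103 to 183 bp. The libraries list 4296910 to 10349600 hit-weighted reads, of which 20121 to 131997 belong to the family. Small RNA signal at RTL1, the expressed transgene, was 1023 and 302 RPM in SC-RTL1, 93.7 and 23.8 RPM in VC-RTL1 and 4.30 and 11.9 RPM in Col-0 pollen. Both libraries of each construct thus lay above both Col-0 libraries. These values count small RNAs and not RTL1 transcripts. The share of signal at 24 nt, the length of most siRNAs made with RNA polymerase IV, was 8.13 and 14.7% in nrpd1a-3 FTL and 11.6 and 12.9% in WT FTL pollen and does not separate the sorted genotypes. MIR845a, a microRNA abundant in pollen, was the defining marker of the tissue, at 56465 to 859267 RPM in all libraries. It varied widely between replicates of the sorted pollen, with 252148 and 56465 RPM in nrpd1a-3 FTL and 429793 and 79042 RPM in WT FTL pollen. Replicate 1 of both sorted genotypes was also listed to 45 nt and all other libraries to 30 nt, so values within each number are given beside the pooled ones.

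The 8 MIR156 genes together summed to 81827 and 70799 RPM in SC-RTL1, 66521 and 80288 RPM in VC-RTL1 and 52364 and 62047 RPM in Col-0 pollen. Sorted pollen had 38574 and 25770 RPM in nrpd1a-3 FTL and 21985 and 24249 RPM in WT FTL. The family thus took 3.13 to 9.41% of all microRNA signal, or 6.74 to 11.9% once MIR845a is left out of the denominator. By group mean the order was SC-RTL1 (76313 ± 7798 RPM), VC-RTL1 (73404 ± 9735), Col-0 (57206 ± 6847), nrpd1a-3 FTL (32172 ± 9054) and WT FTL (23117 ± 1601; SD, n = 2 each). SC-RTL1 and VC-RTL1 overlapped. Each other neighbouring pair did not overlap, though nrpd1a-3 FTL and WT FTL means lay only about 1 SD of the nrpd1a-3 FTL libraries apart. Unsorted and sorted pollen were prepared in different ways, and genotype and preparation cannot be told apart between them.

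**Figure D1:**
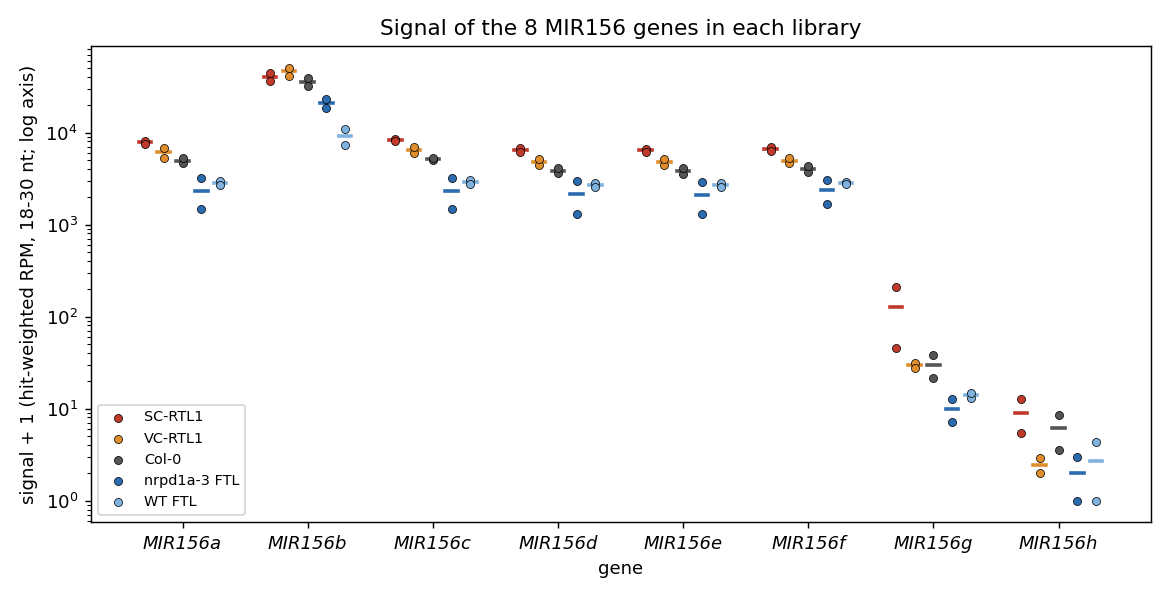
Signal of each MIR156 gene in each library on a log axis, as RPM plus 1 summed over 18 to 30 nt. Points are libraries and bars are means of 2, for SC-RTL1, VC-RTL1, Col-0, nrpd1a-3 FTL and WT FTL pollen. MIR156b lies above all other members in every library (7331 to 50847 RPM), MIR156a, c, d, e and f run together, and MIR156g and MIR156h are the lowest.

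MIR156b carried most of this signal. It had 44714 and 36294 RPM in SC-RTL1, 41605 and 50847 RPM in VC-RTL1 and 31767 and 38895 RPM in Col-0 pollen, and 23233 and 18542 RPM in nrpd1a-3 FTL against 7331 and 10921 RPM in WT FTL pollen. It therefore ranked between 4 and 9 among the microRNA genes of a library, and it held 33.3 to 72.0% of the family's signal, lowest in the WT FTL libraries (33.3 and 45.0%). Per 100 bp of hairpin the order of the genes was unchanged at the top, with a mean over the 10 libraries of 16620 RPM for MIR156b, 4834 RPM for MIR156c and 3921 RPM for MIR156a.

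The remaining members with the common 5p strand formed a narrow band. MIR156a had 8191 and 7598 RPM in SC-RTL1, 5355 and 6818 RPM in VC-RTL1 and 4611 and 5272 RPM in Col-0 pollen, with 3204 and 1463 RPM in nrpd1a-3 FTL against 3004 and 2716 RPM in WT FTL pollen. MIR156c followed it with 8407 and 8074 RPM in SC-RTL1, 6015 and 6999 RPM in VC-RTL1, 5031 and 5312 RPM in Col-0, 3176 and 1463 RPM in nrpd1a-3 FTL and 3044 and 2755 RPM in WT FTL pollen. In these genes the SC-RTL1 libraries were the highest and replicate 2 of nrpd1a-3 FTL the lowest. MIR156d, MIR156e and MIR156f ranged over 1305 to 6777, 1301 to 6706 and 1690 to 6976 RPM with the same order of the groups. Their agreement is not independent evidence, since most of their signal is the same reads.

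At 20 nt the sharing can be seen directly. In Col-0 replicate 1 the 6 genes listed between 3306 RPM (MIR156e) and 3554 RPM (MIR156b), and in SC-RTL1 replicate 1 between 6215 RPM (MIR156e) and 6662 RPM (MIR156b). Over the 10 libraries the highest of the 6 exceeded the lowest by 2.78 to 15.1%, MIR156b was the highest in each, and without MIR156b the excess was 0.347 to 1.70%. Equal shares at the level of the lowest gene make up 97.3 to 99.4% of the summed 20-nt signal. The 20-nt signal of the 6 genes is thus close to a single measurement, which gave 37799 and 33966 RPM in SC-RTL1, 25013 and 28973 RPM in VC-RTL1 and 20108 and 23427 RPM in Col-0 pollen when summed. It was 16975 and 7401 RPM in nrpd1a-3 FTL against 15940 and 14342 RPM in WT FTL pollen.

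MIR156g and MIR156h, whose mature sequences can be told apart from the rest, were rare. MIR156g had 44.6 and 210 RPM in SC-RTL1, 30.4 and 26.6 RPM in VC-RTL1, 20.3 and 37.4 RPM in Col-0, 11.8 and 6.10 RPM in nrpd1a-3 FTL and 12.2 and 13.9 RPM in WT FTL pollen. SC-RTL1 replicate 2 stood apart from every other library, with 157 RPM at 20 nt against 24.1 RPM in replicate 1. Part of this gene's signal is shared too, because RNAs of 18 to 20 nt that start at base 2 of the 5p strand have 7 genomic hits, MIR156g among them. MIR156h had 11.7 and 4.38 RPM in SC-RTL1, 1.01 and 1.91 RPM in VC-RTL1, 2.58 and 7.59 RPM in Col-0, 2.01 and 0 RPM in nrpd1a-3 FTL and 3.34 and 0 RPM in WT FTL pollen. At most 11 reads of it were listed in any library, and the 2 libraries at 0 allow up to 2.01 RPM (nrpd1a-3 FTL) and 3.62 RPM (WT FTL) at 3 reads. It failed the minimum of 12 hit-weighted reads per library and was not tested.

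The lengths of the RNAs split the family. MIR156b was listed mainly at 23 nt, the annotated length of its 3p strand, whereas MIR156a, c, d, e and f peaked at 20 nt in every library and MIR156g at 20 nt in all but Col-0 replicate 1, where 19 nt was higher. The few reads of MIR156h lay at 20 and 21 nt, and mostly at 21 nt in 6 of the 8 libraries that listed it, VC-RTL1 replicate 1 and WT FTL replicate 1 excepted. At 23 nt MIR156b had 33280 and 26600 RPM in SC-RTL1, 33602 and 41086 RPM in VC-RTL1 and 25031 and 30357 RPM in Col-0 pollen, and 16707 and 14819 RPM in nrpd1a-3 FTL against 3736 and 7093 RPM in WT FTL pollen. RNAs of 22 to 24 nt were 59.9 to 91.6% of the gene's signal, and rested on 6576 to 72946 hit-weighted reads per library. At MIR156d and MIR156e the same lengths held no more than 0.825 and 0.101% of the signal. At MIR156f they held from 0.438% (WT FTL replicate 1) to 13.1% (nrpd1a-3 FTL replicate 2), mostly at 22 nt.

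The strand of a read is not listed, so these lengths are not an assignment to the 3p arm. The genome gives a partial check. An RNA of 23 nt that starts with the common 5p sequence has 5 genomic hits, at MIR156a, c, d, e and f, and 1 hit of its own at MIR156b. MIR156e listed 0 RPM at 23 nt in every library, which leaves the 23-nt signal of MIR156a (400 to 897 RPM in unsorted and 44.7 to 78.6 RPM in sorted pollen) and of MIR156c (583 to 1178 and 86.0 to 118 RPM) with reads that are not shared with it. For MIR156b, a 23-nt read of either arm would have a single hit, and the arms cannot be told apart.

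**Figure D2:**
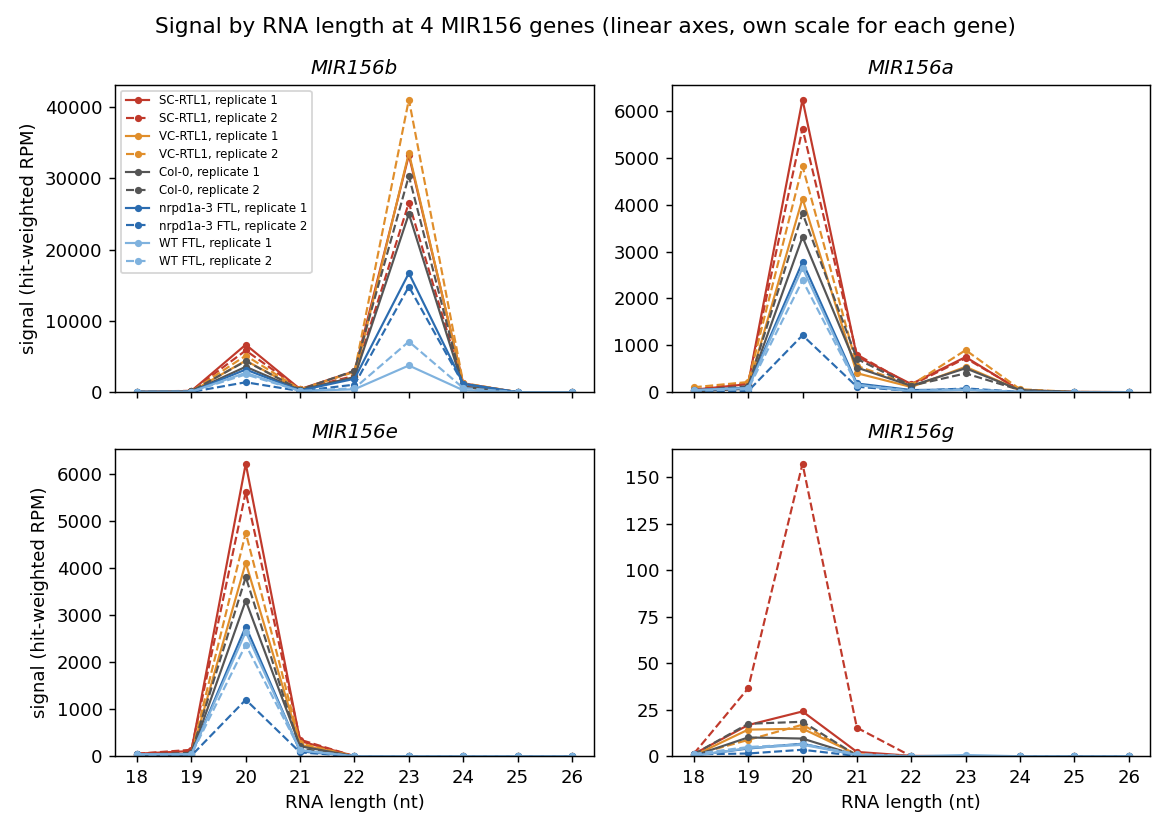
Signal by RNA length from 18 to 26 nt at MIR156b, MIR156a, MIR156e and MIR156g, on linear axes with a scale of their own. Lines are libraries, solid for replicate 1 and dashed for replicate 2. MIR156b peaks at 23 nt, MIR156a and MIR156e at 20 nt with a second, low peak at 23 nt for MIR156a alone, and SC-RTL1 replicate 2 stands apart at MIR156g with 157 RPM at 20 nt.

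The ratio of MIR156b RNAs of 22 to 24 nt to the summed 20-nt RNAs of MIR156a to MIR156f compares the length classes within a library, free of the scaling. It was 0.990 and 0.877 in SC-RTL1, 1.47 and 1.56 in VC-RTL1 and 1.39 and 1.45 in Col-0 pollen. Both SC-RTL1 libraries lay below every VC-RTL1 and Col-0 library. The log2 difference was -0.61 from Col-0 and -0.70 from VC-RTL1, with a pooled SD of 0.09 and 0.10 on that scale, and between VC-RTL1 and Col-0 it was 0.09 with an SD of 0.05. On the deposited scale the 20-nt sum was higher in SC-RTL1 than in Col-0 pollen by more than the spread (35883 ± 2710 against 21768 ± 2347 RPM, SD, n = 2 each). The 22 to 24-nt signal of MIR156b overlapped (37426 and 29782 RPM against 27853 and 34031 RPM). Scaled to the other microRNA genes, the log2 differences over all lengths were -0.60 for MIR156b and -0.12 to -0.043 for MIR156a, c, d, e and f. The length classes were not rescaled apart, so which of them differed is not settled.

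In sorted pollen the ratio was 1.16 and 2.29 in nrpd1a-3 FTL against 0.275 and 0.572 in WT FTL, without overlap and with a log2 difference of 2.04 (pooled SD 0.72). Within replicate 1 the log2 difference was 2.08 and within replicate 2 it was 2.00. Here, on the deposited scale, the 22 to 24-nt signal of MIR156b differed, at 19747 and 16982 RPM in nrpd1a-3 FTL against 4388 and 8208 RPM in WT FTL pollen, and the 20-nt sum overlapped. The make-up differed by number. Within replicate 1 the log2 difference was 2.17 for the 22 to 24-nt signal of MIR156b and 0.09 for the 20-nt sum. Within replicate 2 these values were 1.05 and -0.95, so the lower 20-nt sum contributed there too. With 2 libraries against 2, each of the 4 ratio differences between groups reached the smallest two-sided p that an exact permutation test allows, 0.333, so none can pass a threshold of 0.05. The ratio was formed after the lengths had been seen, and its values are a description.

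The 22 to 24-nt RNAs of MIR156a and MIR156c were far rarer, and their ratios followed this pattern in part. These ratios have the same 20-nt sum as denominator as that of MIR156b and are not independent of it. For MIR156c the ratio to the 20-nt sum was 0.0378 and 0.0454 in SC-RTL1, 0.0581 and 0.0581 in VC-RTL1 and 0.0614 and 0.0381 in Col-0 pollen, so that SC-RTL1 lay below VC-RTL1 (log2 difference -0.49, pooled SD 0.13) but overlapped Col-0. In sorted pollen it was 0.0120 and 0.0195 in nrpd1a-3 FTL and 0.0109 and 0.0123 in WT FTL, which overlapped. For MIR156a it was 0.0253 and 0.0271 in SC-RTL1, 0.0275 and 0.0382 in VC-RTL1, 0.0341 and 0.0247 in Col-0, 0.00611 and 0.0144 in nrpd1a-3 FTL and 0.00401 and 0.00609 in WT FTL pollen. SC-RTL1 lay below VC-RTL1 here too (-0.31, pooled SD 0.24) and overlapped Col-0, and nrpd1a-3 FTL lay above WT FTL (0.92, pooled SD 0.69). The 22 to 24-nt signal itself overlapped between SC-RTL1 and VC-RTL1 at MIR156a (955 and 921 against 689 and 1108 RPM). It also overlapped at MIR156c (1429 and 1543 against 1453 and 1683 RPM). In sorted pollen that of MIR156a was 104 and 106 RPM in nrpd1a-3 FTL against 64.0 and 87.3 RPM in WT FTL.

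**Figure D3:**
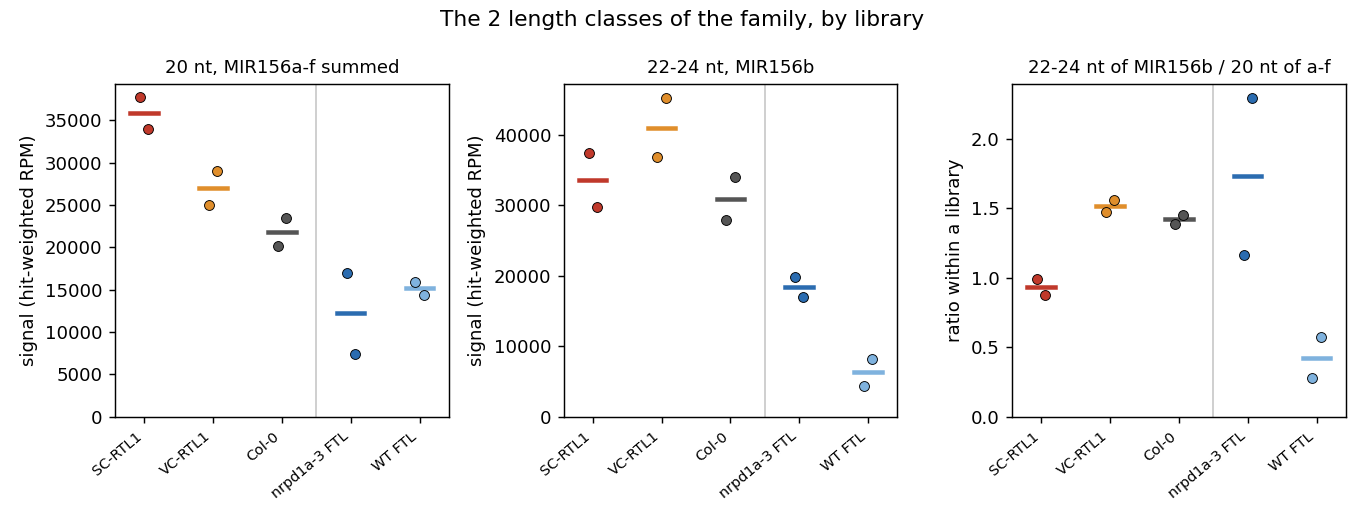
Summed 20-nt signal of MIR156a to MIR156f, 22 to 24-nt signal of MIR156b, and the ratio of the second to the first, for each library on axes that start at 0. Points are libraries and bars are means of 2. The ratio is 0.877 to 0.990 in SC-RTL1 against 1.39 to 1.56 in VC-RTL1 and Col-0 pollen, and 1.16 to 2.29 in nrpd1a-3 FTL against 0.275 to 0.572 in WT FTL pollen.

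The question for the constructs is whether RTL1, which removes siRNA precursors, also alters this microRNA family when it is expressed in the germline. Of the 7 members tested in SC-RTL1 against Col-0 pollen, 0 passed (limma, Benjamini-Hochberg adjusted p below 0.05), where 1.44% of all 11530 loci did. With limma-voom on hit-weighted reads, 0 members passed in this comparison and in the 3 that follow. Adjusted p ran from 0.162 to 0.860, and 4 of 7 members had an unadjusted p below 0.05, against 22.2% of loci and 76 of the 143 microRNA genes tested. The log2 differences (signal plus 1 RPM) were 0.68 for MIR156a (95% interval -0.05 to 1.41), 0.20 for MIR156b (-0.96 to 1.35) and 0.75 for MIR156d (0.07 to 1.43). MIR156c, MIR156e and MIR156f lay between 0.67 and 0.75. MIR156g had 1.78 (0.32 to 3.24), which fell to 0.67 without SC-RTL1 replicate 2. In 6 of 7 members both SC-RTL1 libraries lay above both Col-0 libraries (29.3% of all loci and 105 of the 143 microRNA genes tested), 5 of them sharing their 20-nt reads, and MIR156b overlapped.

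For MIR156a to MIR156f this sign depended on the scale. The median log2 difference was 0.71 over the tested members, 1.01 over the 143 microRNA genes tested, of which 136 were higher, and 0.08 over all loci. Scaled to the summed signal or to the other microRNA genes, the median of all loci moved to -0.63 and -0.69, and MIR156a, MIR156b, MIR156c and MIR156f turned negative (also MIR156d and MIR156e when scaled to the other microRNA genes). Scaled to the median ratio every member stayed positive, MIR156a at 0.60 and MIR156b at 0.12, and MIR156g was positive under all 3 scalings (1.01 to 1.71). Relative to the median of all loci MIR156a stayed at 0.60, 0.58 and 0.57 under the deposited scale and these scalings, and MIR156b at 0.12, 0.09 and 0.09. Markers of leaf and other sporophyte tissue moved in the same direction: RBCS1A, a Rubisco subunit gene, had 162 and 101 RPM in SC-RTL1 against 39.5 and 87.1 RPM in Col-0 pollen, CAB1, a chlorophyll-binding protein gene, had 117 and 122 against 43.5 and 110 RPM, and the 7 MIR166 genes summed to 41588 and 47154 against 17020 and 34647 RPM. None of these 3 overlapped. SC-RTL1 also lay above Col-0 without overlap in 29.3% of all loci and in 105 of the 143 microRNA genes tested. The part of these markers in the MIR156 values was not tested.

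The same question was asked of expression from the LAT52 promoter. In VC-RTL1 against Col-0 pollen 0 of 7 members passed, where 1.79% of loci did, no member had an unadjusted p below 0.05 (12.1% of loci had one and were higher and 6.83% had one and were lower), and adjusted p was 0.590 to 0.981. MIR156a differed by 0.29 (95% interval -0.44 to 1.03), MIR156b by 0.39 (-0.77 to 1.54) and MIR156g by 0.04 (SE 0.63), and the other 4 lay between 0.29 and 0.33. These intervals do not show that the groups are alike. In MIR156a to MIR156f the VC-RTL1 libraries lay above the Col-0 libraries, which also held for 32.0% of loci and for 91 of the 143 microRNA genes tested. Scaling to the other microRNA genes turned 6 of the 7 differences negative, MIR156b excepted. The median over the members was 0.31, against 0.78 over the microRNA genes tested and 0.17 over all loci.

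Between the constructs, in SC-RTL1 against VC-RTL1 pollen, 0 of 7 members passed, where 3.56% of loci did, with adjusted p from 0.160 to 0.856. MIR156g was the only member with an unadjusted p below 0.05, against 23.3% of loci. Its log2 difference was 1.74 (95% interval 0.28 to 3.19), with 0.63 when SC-RTL1 replicate 2 was left out and 2.84, past the threshold at an adjusted p of 0.0399 (limma), when replicate 1 was left out. MIR156a, c, d, e and f differed by 0.34 to 0.44, with SC-RTL1 libraries above VC-RTL1 libraries in these 5 and in MIR156g (29.0% of loci and 70 of the 143 microRNA genes tested), and MIR156b by -0.19 (-1.34 to 0.96). Scaling to the summed signal or to the other microRNA genes turned MIR156a, c, d, e and f negative as well, as the median of all loci moved to -0.49 and -0.43. Relative to that median MIR156a was at 0.39, 0.37 and 0.38 under the deposited scale and these scalings. Over the lists, the median was 0.42 for the members, 0.30 for the microRNA genes tested and -0.01 for all loci. Both comparisons with VC-RTL1 and SC-RTL1 share libraries with those above and are not independent of them.

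In sorted pollen the comparison asks whether microRNAs change when RNA polymerase IV is lost. In nrpd1a-3 FTL against WT FTL 0 of 7 members passed in the main fit, which does not pair libraries by number. None had an unadjusted p below 0.05 (43.1% of loci), and adjusted p ran from 0.383 to 0.826. Of all 7343 loci 21.9% passed as lower and 0.0681% as higher, and the median over all loci was -0.96, against -0.19 over the 112 microRNA genes tested and -0.43 over the members. MIR156b differed by 1.21 (95% interval -0.97 to 3.40) and was higher in both nrpd1a-3 FTL libraries than in either WT FTL library, as were 17.1% of loci. Within replicate 1 its log2 difference was 1.66 and within replicate 2 it was 0.76. With a replicate block, which matches libraries of the same number, 684 loci were called higher and 3527 lower. MIR156b was among those called higher (adjusted p = 0.00817, limma). At 20 nt alone, the length it shares, the difference was -0.31.

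The other members were slightly lower in the mean, MIR156a by -0.40 (-2.26 to 1.46), and MIR156g, at -0.55, was lower in both nrpd1a-3 FTL libraries (50.6% of loci). All of them turned positive when scaled to the median ratio, under which the median of all loci moved to 0.17, and relative to that median MIR156a was at 0.56 on the deposited scale and 0.64 on this one. The lower mean of MIR156a to MIR156f other than MIR156b came from replicate 2, as MIR156a differed by 0.09 within replicate 1 and by -0.89 within replicate 2 and by 0.17 in the fit without nrpd1a-3 FTL replicate 2. The leaf markers also differed by replicate, but not in one direction. RBCS1A had 97.8 and 4.80 RPM in nrpd1a-3 FTL against 38.9 and 7.53 RPM in WT FTL pollen, and CAB1 had 55.7 and 5.25 against 28.4 and 5.32 RPM. The summed MIR166 genes were instead higher in replicate 2, at 5562 and 8132 against 2362 and 6962 RPM. The part of these markers was not tested.

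**Figure D4:**
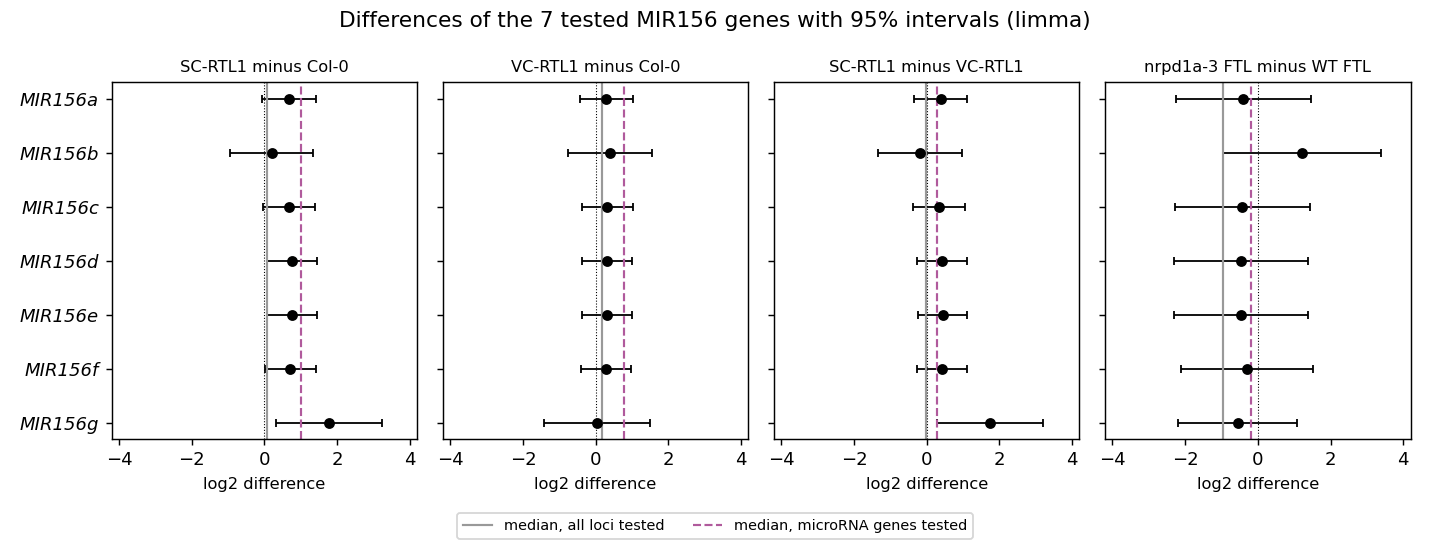
Log2 differences of the 7 tested MIR156 genes in SC-RTL1 minus Col-0, VC-RTL1 minus Col-0, SC-RTL1 minus VC-RTL1 and nrpd1a-3 FTL minus WT FTL, on the deposited scale, with 95% intervals from limma. The solid line is the median of all loci tested and the dashed line that of the microRNA genes tested. In SC-RTL1 minus Col-0 the median of the members (0.71) lies below that of the microRNA genes (1.01), and scaling to the other microRNA genes makes MIR156a to MIR156f negative there.

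MIR157, a sister family with targets among the same SPL genes, was less abundant. MIR157b was its highest gene by mean, with 968 and 973 RPM in SC-RTL1, 412 and 213 RPM in VC-RTL1, 716 and 696 RPM in Col-0, 1939 and 259 RPM in nrpd1a-3 FTL and 1155 and 489 RPM in WT FTL pollen. MIR157a, which shares its reads through a 5p strand with 3 genomic hits, had 966 and 960 RPM in SC-RTL1 against 409 and 204 RPM in VC-RTL1 pollen. Of the 4 MIR157 genes, 2 were called higher in SC-RTL1 than in VC-RTL1 pollen, as were 1.06% of loci. The log2 difference was 1.73 for MIR157a (95% interval 0.98 to 2.48, adjusted p = 0.0285, limma). It was 1.71 for MIR157b (0.98 to 2.44, adjusted p = 0.0277, limma), and the list median was 1.48. Against Col-0 pollen MIR157a and MIR157b differed by -1.28 and -1.25 in VC-RTL1 and by 0.45 and 0.46 in SC-RTL1, and passed in neither. The SC-RTL1 libraries of these genes, which share reads, lay above the VC-RTL1 libraries, as in 29.0% of loci and 70 of the 143 microRNA genes tested. The sign of the difference between the constructs held in every alternative tried. The call did not hold without SC-RTL1 replicate 1 (adjusted p = 0.125 for MIR157a, limma), SC-RTL1 replicate 2 (0.154) or VC-RTL1 replicate 2 (0.158, log2 difference 1.23). It also ended when scaled to the summed signal (0.0677 for MIR157a and 0.0742 for MIR157b), at 20 nt alone (0.0908 for both) and with no variance trend (0.0567 and 0.0548), and held in 13 of 19 alternatives for each gene. No MIR157 gene passed in the other comparisons, where the list medians were 0.46 in SC-RTL1 and -1.05 in VC-RTL1 against Col-0 and -0.17 in nrpd1a-3 FTL against WT FTL pollen.

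MIR172 acts after miR156 in the phase pathway, since SPL proteins activate MIR172b, and its product represses APETALA2-like genes. MIR172b was the highest by mean, with 695 and 698 RPM in SC-RTL1, 318 and 336 RPM in VC-RTL1, 145 and 300 RPM in Col-0, 104 and 21.4 RPM in nrpd1a-3 FTL and 127 and 38.3 RPM in WT FTL pollen. In SC-RTL1 against Col-0 pollen 1 of 5 rose, as did 0.477% of loci: MIR172e had 639 and 614 against 107 and 235 RPM, a log2 difference of 1.97 (95% interval 1.18 to 2.77, adjusted p = 0.0378, limma). In SC-RTL1 against VC-RTL1 pollen 2 of 5 rose, where 1.06% of loci did. MIR172c had 360 and 515 against 159 and 154 RPM (1.45, 0.86 to 2.05, adjusted p = 0.0240, limma), and MIR172d, with the same mature sequence as MIR172c, had 399 and 538 against 173 and 166 RPM (1.45, 0.86 to 2.03, adjusted p = 0.0225). The list medians were 1.73 and 1.16 in these comparisons, 0.64 in VC-RTL1 against Col-0 and -0.57 over the 4 genes tested in nrpd1a-3 FTL against WT FTL pollen, where none passed. Leaving out either SC-RTL1 library ended each of the 3 calls (adjusted p = 0.0560 to 0.168, limma), as did leaving out either VC-RTL1 library (0.135 to 0.197), while every sign held. The calls of MIR172e, MIR172c and MIR172d also ended when scaled to the summed signal (0.0926, 0.212 and 0.214), at 20 to 22 nt alone (0.0973, 0.0547 and 0.0544) and with no variance trend (0.0859, 0.0533 and 0.0515). Those of MIR172c and MIR172d ended when scaled to the other microRNA genes (0.0931 and 0.0942), and that of MIR172e at 20 nt alone (0.430) and with the 4 libraries of the comparison alone (0.133).

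The SPL genes were searched for sites to show which of them the family could pair with. A site here is the ungapped 20-nt window of the gene's sense strand with the fewest differences from the reverse complement of miR156a-5p, with differing bases in capitals. Of the 11 genes listed as targets, 8 had 1 difference in a coding exon, SPL3 and SPL4 had 2 and SPL5 had 3, while the 6 SPL genes listed without a site had 6 to 8. The sites of SPL9, which drives the adult phase, and of SPL3, which promotes flowering and carries its site in the 3′ UTR, are shown.
SPL9, chr2:17589066-17589085: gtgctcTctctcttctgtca
SPL3, chr2:14305878-14305897: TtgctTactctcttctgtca
A match describes the sequence and is no measurement of cleavage, and the files used here hold small RNAs and not mRNA levels.

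Small RNAs at the SPL genes were few. Of the 11 genes with a site 2 passed the filter (SPL2 and SPL6) and of the 6 without a site 3 did (SPL1, SPL7 and SPL14) in unsorted pollen, and 0 of 17 in sorted pollen. None of the 5 tested genes passed in any of the 3 unsorted comparisons (lowest adjusted p 0.226, limma). SPL6 was the highest of the genes with a site, at 13.9 and 24.8 RPM in SC-RTL1, 20.98 and 16.2 RPM in VC-RTL1, 10.2 and 24.8 RPM in Col-0, 2.99 and 8.71 RPM in nrpd1a-3 FTL and 6.67 and 8.44 RPM in WT FTL pollen. SPL7, a regulator of the copper response and the highest without a site, had 19.1 and 14.6 RPM in SC-RTL1, 19.2 and 20.03 RPM in VC-RTL1, 8.60 and 13.0 RPM in Col-0, 13.1 and 5.36 RPM in nrpd1a-3 FTL and 12.7 and 8.44 RPM in WT FTL pollen. The medians of the tested genes with and without a site were -0.15 and 0.61 in SC-RTL1 against Col-0, 0.36 and 0.83 in VC-RTL1 against Col-0 and -0.51 and -0.22 in SC-RTL1 against VC-RTL1 pollen.

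The microRNA genes whose levels followed the summed family most closely over the 10 libraries were MIR861, MIR162b and MIR847. Likeness was the root mean square difference of log2 signal after each gene's mean was taken off, among 119 microRNA genes outside the family with a mean of at least 12 RPM. It was 0.359 for MIR861 (30.8 to 189 RPM over the libraries), 0.397 for MIR162b (460 to 3540 RPM), whose product acts on the mRNA of DCL1, and 0.419 for MIR847 (4.69 to 27.7 RPM). These points share libraries and their scaling, and the closeness is a description.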

How the data were processed

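By the authors' methods and notes, small RNAs of pollen were sequenced as single-end reads, filtered by length and aligned with Bowtie to the TAIR10 genome, where a read had to match without error and was kept at all its positions. The deposited values are signal: reads per gene and length, weighted by 1 over the genomic hits of the read and scaled to the library (RPM). The values of a library sum to 3743340 to 8672910 RPM, and 61.5 to 68.1% are whole reads within 0.01 read, so they were not treated as counts and a test on log values replaced the authors' count test. The value of 1 read (0.430 to 1.46 RPM) is the most frequent value of a library. Floors (3 reads) cover counting error only, and the 95% intervals are those of limma, from the spread between libraries.

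Signal of 18 to 30 nt was summed per locus. Loci that averaged 12 or more hit-weighted reads in the libraries of a fit were tested with limma 3.58.1 (R 4.3.3) on log2(signal + 1) with a variance trend, two-sided, Benjamini-Hochberg over all loci at 0.05. The 6 unsorted libraries formed one fit (3 residual degrees of freedom) and the 4 sorted libraries another (2). The fits were tested on simulated data. Genes and sequences were taken from TAIR10.1 (RefSeq). No table of mature microRNAs was used, and miRNAs were read from the genome by annotated coordinates. Other steps used pandas 2.3.3, SciPy 1.17.1, numpy 2.4.6 and matplotlib 3.10.9 under Python 3.11.15. Signal above 30 nt (0 members) was left out.

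All 8 members are named. Of the MIR157, MIR172 and SPL lists, genes were named that passed in a comparison or were highest by mean over the 10 libraries, and the 3 microRNA genes most like the family. The members and lists were chosen with earlier results of these data known. Alternatives were 3 other scalings, no filter, pseudocounts of 0.1 and 5, lengths of 20 to 22 nt or 20 nt, no variance trend, limma-voom on hit-weighted reads, the 4 libraries of a comparison alone, a replicate block, each library left out, and MIR156a to MIR156f summed to 1 feature.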

Additional observations from a re-analysis of the deposited data

Results flagged for a closer look

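The ratio of MIR156b RNAs of 22 to 24 nt to the 20-nt RNAs of MIR156a to MIR156f lay on opposite sides of Col-0 in the constructs. Both SC-RTL1 libraries (0.990 and 0.877) lay below and both VC-RTL1 libraries (1.47 and 1.56) above the Col-0 libraries (1.39 and 1.45), by a log2 difference of -0.61 and of 0.09. Neither the SC-RTL1 difference (pooled SD 0.09) nor the VC-RTL1 difference (pooled SD 0.05) passed a test, each with p = 0.333 in an exact permutation test. The lower VC-RTL1 library (1.47) lay only just above the higher Col-0 library (1.45). The log2 difference of SC-RTL1 from VC-RTL1 was -0.70. An exact permutation test of this difference between the constructs gave p = 0.333, the smallest that 2 libraries against 2 allow, so it could not pass.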

How the results depend on the processing

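No member passed in VC-RTL1 against Col-0 pollen under any of the 19 alternatives. In SC-RTL1 against Col-0 pollen 1 member (MIR156g) passed at 20 to 22 nt alone (log2 difference 2.23), where 44 of 6042 loci were called higher and 24 lower. In SC-RTL1 against VC-RTL1 pollen 1 member (MIR156g) passed when scaled to the other microRNA genes (1.30), where 90 of 11530 loci were called higher and 1279 lower. MIR156g also passed at 20 to 22 nt alone (1.99), where 336 of 6042 loci were called higher and 85 lower. Its log2 difference was 2.84 without SC-RTL1 replicate 1 and 0.63 without SC-RTL1 replicate 2. In nrpd1a-3 FTL against WT FTL pollen 1 member (MIR156b, log2 difference 1.21, adjusted p = 0.00817, limma) passed with a replicate block, under which 684 loci were called higher and 3527 lower. The deviations of same-numbered libraries correlated over loci at r = 0.57 in sorted pollen and at 0.062, 0.083 and -0.0025 in the unsorted pairs. By the authors' methods, DsRed-positive and DsRed-negative grains were sorted simultaneously. Nothing states that a number marks a shared sort, so the block stayed an alternative, and it changed no other call of a member. The causes of these shifts were not tested.

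Members that had not passed turned their sign in 44 single values, given here as values or ranges. Scaled to the other microRNA genes, VC-RTL1 minus Col-0 was -0.062, -0.027, -0.030, -0.040, -0.060 and -0.30 for MIR156a, c, d, e, f and g. SC-RTL1 minus Col-0 was -0.12, -0.60, -0.12, -0.045, -0.043 and -0.080 for MIR156a to MIR156f, and SC-RTL1 minus VC-RTL1 was -0.055, -0.095, -0.015, -0.0035 and -0.020 for MIR156a, c, d, e and f. Scaled to the summed signal, VC-RTL1 minus Col-0 was -0.17 for MIR156g. SC-RTL1 minus Col-0 was then -0.049, -0.53, -0.054 and -0.013 for MIR156a, b, c and f, and SC-RTL1 minus VC-RTL1 was -0.12, -0.16, -0.081, -0.070 and -0.087 for MIR156a, c, d, e and f. Scaled to the median ratio, MIR156g was -0.049 in VC-RTL1 minus Col-0, and nrpd1a-3 FTL minus WT FTL was 0.81, 0.78, 0.75, 0.74, 0.91 and 0.54 for MIR156a, c, d, e, f and g. MIR156b was 0.30 at 20 to 22 nt and 0.39 at 20 nt in SC-RTL1 minus VC-RTL1, and -0.31 at 20 nt in nrpd1a-3 FTL minus WT FTL. With 1 library left out, MIR156g ranged over -0.38 to 0.47 in VC-RTL1 minus Col-0. In nrpd1a-3 FTL minus WT FTL, MIR156a, c, d, e and f ranged over -0.96 to 0.17, -0.98 to 0.13, -1.05 to 0.12, -1.05 to 0.12 and -0.73 to 0.13. A lone library left in a group was assumed to vary like the others.

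The log2 difference of the MIR156b length ratio kept its sign under settings chosen after the data were seen, 23 nt alone, 18 to 21 nt for the shared signal and each library left out, and with a library left out it was -0.69 to -0.52 in SC-RTL1 minus Col-0, -0.79 to -0.61 in SC-RTL1 minus VC-RTL1, 0.05 to 0.14 in VC-RTL1 minus Col-0 and 1.51 to 2.57 in nrpd1a-3 FTL minus WT FTL. Calls of MIR157 and MIR172 genes were lost in 37 single values. Depth kept MIR156h out of the test. Over all loci, higher and lower calls were 55 and 111 in SC-RTL1 against Col-0 (0 to 1335 and 1 to 1656 over the alternatives), 188 and 18 in VC-RTL1 against Col-0 (1 to 747 and 0 to 147), 122 and 288 in SC-RTL1 against VC-RTL1 (0 to 336 and 0 to 1279) and 5 and 1608 in nrpd1a-3 FTL against WT FTL (0 to 684 and 0 to 3527).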
